A study of Mus musculus with 24 samples.

Results

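Adipose tissue dendritic cells (ATDC) of obese mice were compared with those of lean mice. The ATDC made up 5 of the 24 arrays of the series, 3 from mice on a high fat diet (HFD, 60% of it fat) and 2 from mice on a normal diet (ND). All mice were male C57Bl/6, and none of the labels names a transgene or a mutation. The cells were live cells sorted by flow cytometry from the stromal fraction of collagenase-digested gonadal (epididymal) fat. The ND arrays came from 2 pools of cells from 4 mice, and each HFD array from a pool of 3 to 4 mice. The sources used here do not give the markers that gated the ATDC, the age of the mice or how long the HFD mice were fed. Other arrays measured CD11c- and CD11c+ adipose tissue macrophages (ATM), preadipocytes (PA) and macrophages of mice that had lost weight after 12 weeks of HFD and 8 weeks without it (WL). Of 22180 genes with a probe row of their own symbol, 15496 were bright enough to be tested. Because each sample is a sorted bulk pool, fewer cells of a type and less RNA per cell cannot be told apart. The p-values measure the spread between pools, estimated jointly over all 9 sorted groups and not over ATDC alone.

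Dendritic cells take up antigen, cut it in endosomes and lysosomes and show the peptides on MHC molecules to T cells. Conventional dendritic cells fall into a type that cross-presents to CD8 T cells (cDC1, marked by Xcr1 and Irf8) and one that mainly presents to CD4 T cells (cDC2, marked by Cd209a, Sirpa and Irf4). In obese fat, macrophages that surround dying adipocytes take up lipid and carry high levels of lysosomal and lipid-handling genes such as Trem2, Gpnmb, Ctsk and Lipa, and these cells are called lipid-associated macrophages. Fat also holds lymphocytes, natural killer (NK) cells, mast cells and matrix-producing preadipocytes.

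Dendritic cell identity genes, as a list, were higher in the sorted ATDC than in the other groups under both diets. The median log2 level of 18 dendritic cell identity genes was 7.79 and 7.37 on the ND arrays and 7.82, 7.45 and 7.56 on the HFD arrays, while the means of the other 7 sorted groups were between 3.92 and 5.10. Flt3, the receptor for the growth factor of conventional dendritic cells, stood at 8.07 and 8.03 on the ND arrays and at 8.57, 8.16 and 8.09 on the HFD arrays, against 3.03 to 4.46 elsewhere. Macrophage genes were present too. The median of 14 macrophage identity genes was 8.59 and 8.56 on the ND arrays and 7.81, 9.28 and 8.81 on the HFD arrays, with a mean of 10.63 in ND CD11c- ATM. Array medians over all probe rows lay between 2.96 and 3.15, so a level near 3 is that of a middling probe row of its array. Each ATDC array correlated with its own group at a mean r of 0.936 to 0.951. Between arrays of opposite diets r was 0.928 to 0.95, so the correlations did not separate the diets. The ND arrays correlated at 0.943 with each other and at 0.946 and 0.95 with HFD replicate 2. The lowest mean r with its own group was that of HFD replicate 1. That array also carried mast cell genes that the other arrays lacked or held at lower levels.

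A small number of genes passed the test. In a limma fit with 1 mean per group over all 24 arrays, 40 of 15496 genes (0.258%) differed between HFD and ND ATDC at a Benjamini-Hochberg adjusted p under 0.05. Of these, 24 (0.155%) were higher and 16 (0.103%) were lower in obesity. The rises were led by a collagen-cutting lysosomal protease, a Y RNA and a lysosomal glycoprotein, and the falls by a steroid-inactivating enzyme and by genes of lymphoid cells. An unadjusted p under 0.05 was reached by 1335 genes, 4.79% of all tested in the higher and 3.83% in the lower direction, and counts of list members at that level below are to be read against these shares. On every one of the 40 genes the arrays of the diets did not overlap, which held for 22.1% of all genes tested, 11.9% in the higher and 10.1% in the lower direction. The median difference of all tested genes was 0.01 log2 units. Leaving out 1 ATDC array moved the count between 18 (without HFD replicate 3) and 81 (without ND replicate 2), and leaving out the PA arrays, which here share the estimate of the spread, gave 23. Only 5 of the 40 passed in each of the 5 leave-outs, namely Ctsk, Dpp7, H2-Eb2, Akr1c18 and Gpr174. A fit of the 5 ATDC arrays alone called 0 genes, with 1037 at an unadjusted p under 0.05.

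**Figure D1:**
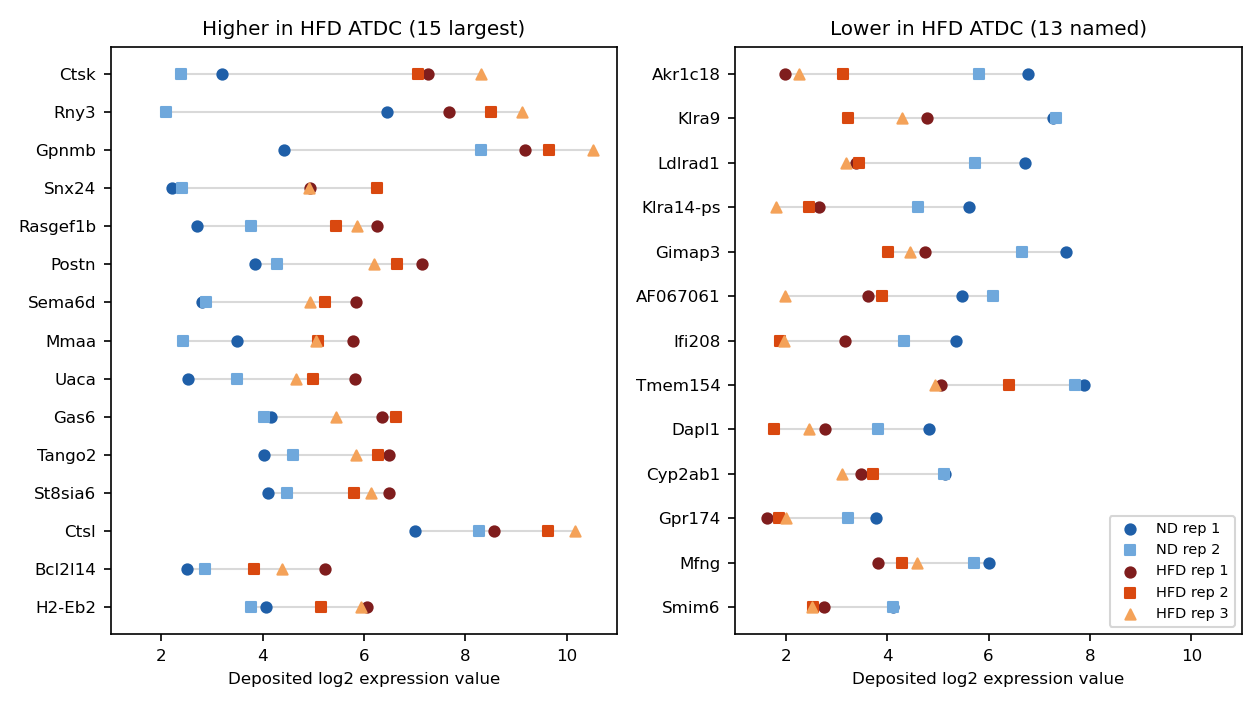
Deposited log2 value on each of the 5 ATDC arrays (x axis) of the 15 largest rises and 13 falls (y axis) in HFD against ND, with one point per array and the diets in different colours. No gene's HFD points overlap its ND points, and the ND arrays lie far apart on Rny3 (6.45 and 2.10) and Gpnmb (4.43 and 8.31).

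Proteases of lysosomes and vesicles were among the genes that rose. Ctsk, cathepsin K, which cuts collagen, stood at 3.19 and 2.40 on the ND arrays and at 7.27, 7.06 and 8.31 on the HFD arrays. The ND arrays were near the array median and every HFD array lay far above it. The difference was 4.75 ± 0.58 (SE) log2 units, with an adjusted p of 0.000771, and it was 4.36 to 5.15 when 1 array was left out. ND replicate 2 lay under its array median, and with that array set at its median the rise was 20.8-fold (4.38 log2 units). Ctsl, cathepsin L, a cysteine protease of lysosomes, was at 7.01 and 8.27 on the ND arrays and at 8.57, 9.62 and 10.17 on the HFD arrays. It was already well lit in lean mice, and the lowest HFD array was only a little above the higher ND array. It rose by 1.82 ± 0.35 (adjusted p = 0.028), a call that was lost when ND replicate 1 or one of HFD replicates 2 and 3 was left out (largest adjusted p 0.318). Dpp7, a dipeptidyl peptidase of intracellular vesicles, is added here after its values were seen, as the sixteenth largest rise. It lay at 4.97 and 5.01 on the ND arrays and at 6.84, 6.22 and 7.09 on the HFD arrays. Replicates of a diet were close together, and the rise was 1.72 ± 0.23 (adjusted p = 0.00206).

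The rise was not shared by all genes of the lysosome. Of 16 lysosomal proteases, 2 rose (Ctsk and Ctsl), 0 fell, and the median difference was 0.08. Lgmn, legumain, a protease of the endolysosome, stood at 7.53 and 8.36 on the ND arrays and at 8.75, 9.91 and 9.68 on the HFD arrays, a difference of 1.50 ± 0.36 that did not pass (adjusted p = 0.0945). Ctsb, cathepsin B, differed by 0.66 ± 0.24 (adjusted p = 0.354), and Ctsw, a cathepsin of cytotoxic lymphocytes, by -1.74 (adjusted p = 0.42). None of 18 lysosomal hydrolases and membrane proteins passed, with a median difference of 0.17 and 5 higher and 0 lower at an unadjusted p under 0.05. Likewise 0 of 15 subunits of the vacuolar proton pump, which acidifies lysosomes, passed the limma test. Their median difference was 0.39, with 4 higher and 0 lower at an unadjusted p under 0.05. Of the pump, Atp6v0d2, a subunit found in osteoclasts and some macrophages, lay at 6.10 and 6.55 on the ND arrays and at 7.70, 8.67 and 9.57 on the HFD arrays (difference 2.32 ± 0.67, adjusted p = 0.197). Its arrays did not overlap between diets. The transcription factors that drive lysosome and melanosome genes differed little, with 0 of 5 called and 0 at an unadjusted p under 0.05. Tfe3 differed by 0.53, Tfeb by 0.49, Mitf by 0.15 and Tfec by 0.13.

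The windows from 250 bases before to 50 bases after the start site are shown for Ctsk, Ctsl, Dpp7 and Akr1c18, the 3 proteases and the largest fall, taken from RefSeq on GRCm38.p6 and written 5′ to 3′ on the strand of the gene. Capitals mark CACGTG, the E-box at the core of the element read by Tfeb, Tfe3 and Mitf, and TCATGTG, a form read by Mitf, searched on both strands. The windows are chr3:95498960-95499259 (+) for Ctsk, chr13:64370471-64370770 (-) for Ctsl, chr2:25356283-25356582 (-) for Dpp7 and chr13:4150597-4150896 (-) for Akr1c18.
Ctsk: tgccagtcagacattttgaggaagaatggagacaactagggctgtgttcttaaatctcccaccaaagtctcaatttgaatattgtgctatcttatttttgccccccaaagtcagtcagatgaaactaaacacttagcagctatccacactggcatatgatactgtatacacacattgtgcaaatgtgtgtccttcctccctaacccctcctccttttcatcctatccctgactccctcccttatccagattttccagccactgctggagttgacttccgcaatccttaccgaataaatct
Ctsl: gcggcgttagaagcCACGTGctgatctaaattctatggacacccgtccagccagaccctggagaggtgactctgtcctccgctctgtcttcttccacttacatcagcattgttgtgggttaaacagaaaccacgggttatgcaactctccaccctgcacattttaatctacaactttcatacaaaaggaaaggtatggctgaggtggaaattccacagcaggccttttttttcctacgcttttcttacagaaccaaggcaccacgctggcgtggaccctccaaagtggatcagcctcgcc
Dpp7: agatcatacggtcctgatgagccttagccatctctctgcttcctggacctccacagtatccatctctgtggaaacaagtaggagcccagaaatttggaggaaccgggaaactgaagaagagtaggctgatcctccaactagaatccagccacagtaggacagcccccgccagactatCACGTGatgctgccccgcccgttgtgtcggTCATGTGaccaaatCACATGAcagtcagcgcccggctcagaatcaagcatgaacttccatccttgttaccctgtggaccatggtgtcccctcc
Akr1c18: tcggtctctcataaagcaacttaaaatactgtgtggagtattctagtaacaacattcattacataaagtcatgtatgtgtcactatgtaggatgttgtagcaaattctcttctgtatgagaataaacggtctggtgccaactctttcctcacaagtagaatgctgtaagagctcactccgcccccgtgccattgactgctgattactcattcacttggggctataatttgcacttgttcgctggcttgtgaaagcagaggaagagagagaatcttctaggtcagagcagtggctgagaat
Each gene had 1 window in the table. For Ctsl and Dpp7 its start site lies 252 and 57 bases inside the outer end of the annotated gene, while for Ctsk and Akr1c18 the window's start is that end. Counted from the window's start site, Ctsl held CACGTG at -236, which is 16 bases inside the outer end of the gene. Dpp7 held CACGTG at -73, outside that end, and TCATGTG at -43 and -29, inside it, the last on the opposite strand, with no overlap between the matches. The windows of Ctsk and Akr1c18 held neither motif.

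Windows were found for 20 of the 24 genes that rose and 12 of the 16 that fell. Some genes have several windows, and a gene was counted if any of them held the motif. CACGTG was found for 3 risen genes (Sema6d, Ctsl and Dpp7, 15%), for 0 fallen genes and for 2187 of 27025 genes with a window (8.09%). TCATGTG was found for 2 risen genes (Rasgef1b and Dpp7, 10%), for 0 fallen genes and for 4.31% of all. The PU.1 motif GAGGAAGT was in 3 risen genes (Bcl2l14, Cd300ld3 and Slco2b1, 15%), in 0 fallen and in 3.69% of all. The RUNX motif TGTGGT was in 7 risen genes (35%), 4 fallen genes (33.3%) and 18.9% of all. These matches are a description of the letters in the windows.

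Some genes of lipid-associated macrophages rose as well. Of 21 tested, 3 rose (Ctsk, Gpnmb and Ctsl), 0 fell, and 19 had a positive difference, with a median of 0.58. On 11 of the 21 all HFD arrays lay above all ND arrays, against 11.9% of all genes. The list overlaps that of the proteases, and both were written with earlier results of these data known. Gpnmb, a transmembrane glycoprotein of lysosomes and melanosomes, stood at 4.43 and 8.31 on the ND arrays and at 9.18, 9.65 and 10.51 on the HFD arrays. The ND arrays lay far apart, and the higher of them was close to the lowest HFD array. The rise was 3.41 ± 0.70 (adjusted p = 0.0415), and between 1.47 and 5.35 when 1 array was left out. The gene did not pass once ND replicate 1 or one of HFD replicates 2 and 3 was left out (largest adjusted p 0.398).

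Other genes of the list pointed the same way without passing. Trem2, a lipid-sensing receptor, lay at 3.94 and 7.06 on the ND arrays and at 6.44, 8.46 and 9.10 on the HFD arrays, so that ND replicate 2 was above HFD replicate 1 (difference 2.50 ± 0.75, adjusted p = 0.226). Lipa, the lysosomal acid lipase, differed by 0.79. The list's median level was 8.91 and 8.99 on the ND arrays and 9.18, 9.89 and 10.17 on the HFD arrays. The count of risen list genes was 1 when ND replicate 1 or one of HFD replicates 2 and 3 was left out, and 4 when ND replicate 2 or HFD replicate 1 was. Without the PA arrays it was 1. Among 21 genes of lipid uptake, storage and efflux 0 passed, with a median difference of 0.43 and 6 higher and 2 lower at an unadjusted p under 0.05. Abcg1, a cholesterol exporter, differed by 1.13 (adjusted p = 0.241).

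Markers of macrophages at large had no call. Of 14 macrophage identity genes 0 passed in limma, 4 were higher and 0 lower at an unadjusted p under 0.05, and on 6 all HFD arrays lay above all ND arrays (11.9% of all genes). The median difference was 0.26, and it was 0.65 without HFD replicate 1, 0.49 without ND replicate 2 and 0.05 without HFD replicate 2. The lipid-associated macrophage list had a median of 0.66 without HFD replicate 1, and the lists were not tested against each other. Of the macrophage identity genes 1 was called higher without ND replicate 2, without the PA arrays and with the trend and robust prior. Folr2, a folate receptor of resident macrophages, stood at 5.25 and 6.08 on the ND arrays and at 7.26, 8.45 and 8.58 on the HFD arrays (difference 2.43 ± 0.60, adjusted p = 0.11). Fcgr1, the high-affinity IgG receptor, differed by 1.96 ± 0.76 (adjusted p = 0.41). Adgre1, an adhesion receptor that marks mouse macrophages, lay at 8.80 and 8.89 on the ND arrays and at 8.15, 9.69 and 9.38 on the HFD arrays, with the diets overlapping. Its difference was 0.23 ± 0.61, that of Csf1r, the receptor for macrophage growth factor, 0.29, that of Cd68 0.14, that of Ccr2 -0.16 and that of the mannose receptor Mrc1 -0.04. Ptprc, the marker of all leukocytes, differed by -0.14. The part of macrophage RNA in the rise of Ctsk, Gpnmb and Ctsl was not tested.

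The plot of list members sets these genes beside the lymphoid lists described further on.

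**Figure D2:**
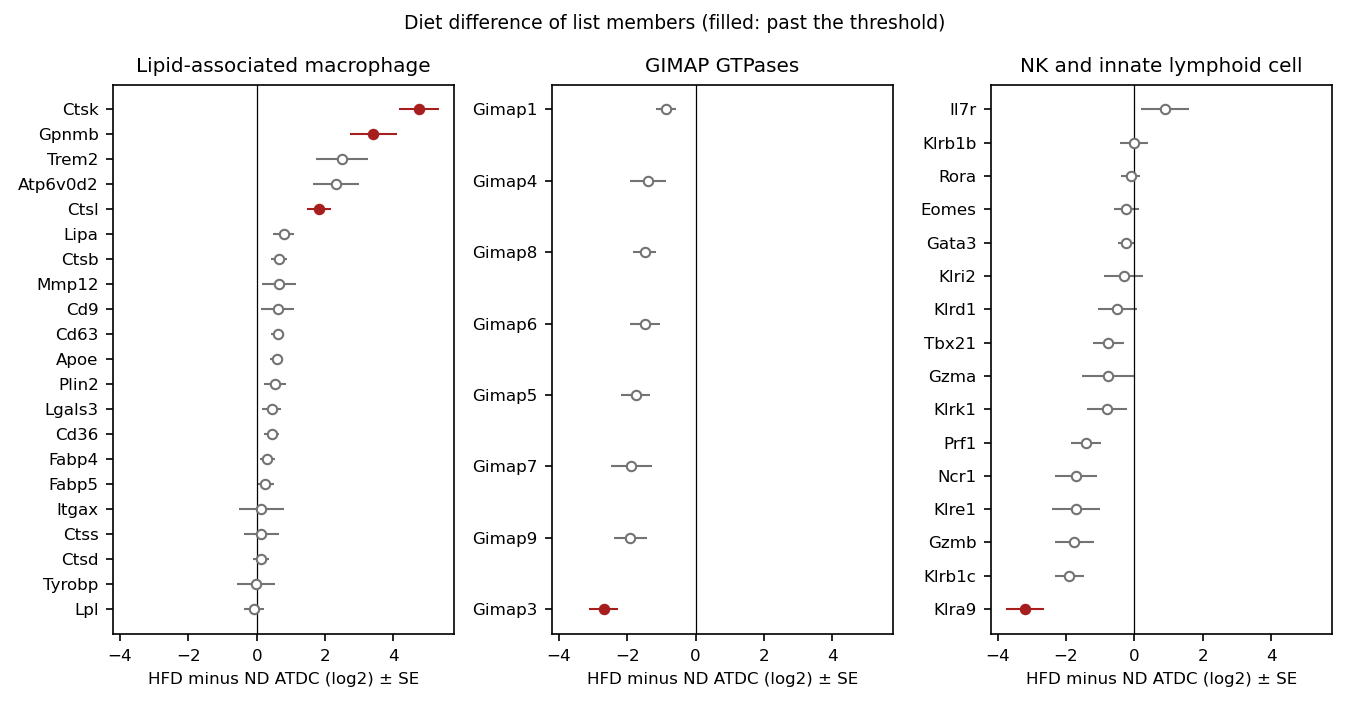
HFD minus ND difference in ATDC (x axis, log2 units, ± SE of the limma fit) of the tested members (y axis) of the lipid-associated macrophage, GIMAP and NK lists, with filled points for genes past an adjusted p of 0.05. Most macrophage list members lie right of 0, with 3 filled, and all 8 GIMAP genes lie left of 0, with 1 filled.

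Genes for binding dying cells and for the matrix were among the rises. Gas6, a secreted protein that bridges phosphatidylserine on dying cells to receptors such as Mertk, stood at 4.17 and 4.02 on the ND arrays and at 6.35, 6.63 and 5.44 on the HFD arrays. Every HFD array lay over 1 log2 unit above both ND arrays. It rose by 2.05 ± 0.35 (adjusted p = 0.0117), and the call ended without either ND array (largest adjusted p 0.0635). Of 20 genes for the uptake of dying cells, Gas6 alone passed, 16 differences were positive and 4 negative, and the median was 0.29. In limma 7 were higher and 0 lower at an unadjusted p under 0.05. On 7 all HFD arrays lay above all ND arrays and on 2 below them, against 11.9% and 10.1% of all genes. Mfge8, another bridging protein, lay at 4.25 and 6.08 on the ND arrays and at 7.72, 6.71 and 7.60 on the HFD arrays (2.18 ± 0.51, adjusted p = 0.0939). Mertk itself lay at 3.74 and 4.04 on the ND arrays and at 4.93, 6.05 and 4.76 on the HFD arrays (1.36 ± 0.38, adjusted p = 0.18). The scavenger receptor Stab1 differed by 1.34 and the integrin Itgb5 by 1.21. The named genes are those with the largest differences of the list. These all pointed upward, and only that of Gas6 passed.

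Postn, periostin, a matrix protein made by fibroblasts, stood at 3.85 and 4.28 on the ND arrays and at 7.15, 6.66 and 6.20 on the HFD arrays. It rose by 2.61 ± 0.54 (adjusted p = 0.0466), and leaving out any 1 of the 5 arrays ended the call (largest adjusted p 0.236). Of 22 genes of fibrillar collagen and matrix, Postn alone passed. The median difference was 0.26, and on 8 genes all HFD arrays lay above all ND arrays (11.9% of all genes did so). The collagen genes Col3a1 and Col1a2 differed by 1.89 (adjusted p = 0.19) and 1.50 (adjusted p = 0.176), Col6a1 by 1.58 and the gelatinase Mmp2 by 2.29 (adjusted p = 0.3). Markers of preadipocytes and fibroblasts had a median level of 4.91 and 5.86 on the ND arrays and 5.81, 6.15 and 5.77 on the HFD arrays, so the diets overlapped. None of the 16 passed in limma, with 3 higher and 0 lower at an unadjusted p under 0.05, and their part in the rise of Postn was not tested.

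Sema6d, a transmembrane semaphorin that binds plexin A1, was at 2.81 and 2.88 on the ND arrays and at 5.85, 5.24 and 4.94 on the HFD arrays. No ND array lay above its own median, so the measured difference of 2.50 ± 0.42 (adjusted p = 0.0117) is given with the least difference of 2.21, which sets the ND arrays at their median. The call ended without ND replicate 1 (adjusted p = 0.0744). Of 20 semaphorins, plexins and neuropilins only Sema6d passed, and the median difference was 0.13. Nrp1, a semaphorin co-receptor, differed by 1.08 (adjusted p = 0.102) and the plexin Plxnc1 by 1.08 (adjusted p = 0.308).

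Antigen presentation genes changed at a single member. H2-Eb2, a beta chain gene of MHC class II, lay at 4.07 and 3.77 on the ND arrays and at 6.06, 5.15 and 5.94 on the HFD arrays. It rose by 1.79 ± 0.28, or 3.46-fold (adjusted p = 0.00817), and passed in each leave-out (largest adjusted p 0.0453). Its mean in the groups other than ATDC was 2.60 to 2.90. Of 12 genes of MHC class II and antigen presentation H2-Eb2 alone passed, and their median level was 10.14 and 9.999 on the ND arrays and 9.74, 9.64 and 9.64 on the HFD arrays. The list's level was lower on HFD arrays, while the median of its members' differences was 0.12. The abundant class II chain H2-Ab1 differed by -0.07 ± 0.67. Its SE draws on all groups: its standard deviation was 0.03 and 0.09 in ND and HFD ATDC, but 1.86 and 1.21 in ND and HFD PA. H2-Oa, which restrains peptide loading, differed by 1.05 (adjusted p = 0.469) and H2-DMb2, which aids it, by -0.54. Of 12 genes of MHC class I and peptide loading 0 passed, with 1 higher and 0 lower at an unadjusted p under 0.05.

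Dendritic cell subset genes had no call with all arrays. Among 18 identity genes, 15 cDC1 genes, 17 cDC2 genes and 17 genes of mature and migratory dendritic cells, limma called 0. At an unadjusted p under 0.05 there were 1, 1, 0 and 1 genes. The arrays of the diets did not overlap on 5 of the 18 identity genes and on 6 of the 15 cDC1 genes (4 higher and 2 lower), against 22.1% of all genes. A cDC1 gene was called lower without ND replicate 2, without HFD replicate 2 and with each array centred. The median difference of the cDC1 genes was 0.14, and it was -0.04 without HFD replicate 1 and 0.30 without HFD replicate 2. The cDC1 list had a median level of 8.34 and 8.30 on the ND arrays and 8.45, 8.27 and 8.61 on the HFD arrays. The cDC2 list stood at 7.28 and 7.88 on the ND arrays and at 7.25, 7.86 and 7.50 on the HFD arrays. In both lists the diets overlapped. The cDC2 list did not single out ATDC. Its mean level was 8.16 in ND and 7.77 in HFD CD11c- ATM, against 7.58 and 7.54 in ATDC.

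Among the marker genes, Zbtb46, a transcription factor of conventional dendritic cells, lay at 5.82 and 5.74 on the ND arrays and at 6.78, 6.20 and 6.58 on the HFD arrays (0.74 ± 0.24, adjusted p = 0.291). Its arrays did not overlap, yet the difference did not pass. Itgax, which encodes CD11c, differed by 0.14 ± 0.67, Flt3 by 0.22 ± 0.32 and Xcr1, a chemokine receptor of cDC1, by -0.09 ± 0.51. The cDC1 transcription factors Irf8 and Batf3 differed by 0.19 and -0.35, and the cDC2 genes Irf4, Cd209a and Sirpa by -0.56 ± 0.49, -0.12 and 0.26. Itgae, which encodes the CD103 integrin of tissue cDC1, lay at 6.64 and 5.39 on the ND arrays and at 3.48, 4.83 and 4.64 on the HFD arrays. It was lower on every HFD array, and its difference of -1.70 ± 0.38 did not pass (adjusted p = 0.0739). Ccr7, which guides dendritic cells to lymph nodes, stood at 7.88 and 7.64 on the ND arrays and at 9.47, 8.31 and 7.17 on the HFD arrays, with HFD replicate 3 below both ND arrays (0.56 ± 0.51, adjusted p = 0.895). Ccl17, a chemokine of mature dendritic cells, lay at 9.91 and 9.98 on the ND arrays and at 8.53, 8.21 and 8.43 on the HFD arrays. The replicates were close, while the difference of -1.56 ± 0.88, whose SE draws on all 9 groups, did not pass (adjusted p = 0.698). Siglech, a marker of plasmacytoid dendritic cells, was at 5.97 and 4.41 on the ND arrays and at 6.83, 3.87 and 3.85 on the HFD arrays. It varied between pools of the same diet more than between diets (-0.34 ± 0.71).

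The remaining named rises had varied roles. Rny3, a Y RNA, which is a small noncoding RNA of the Ro particle with near-identical copies, stood at 6.45 and 2.10 on the ND arrays and at 7.68, 8.50 and 9.12 on the HFD arrays. The ND pools differed by more than most diet effects here. The rise of 4.16 ± 0.84 (adjusted p = 0.0415) was lost when ND replicate 2 or one of HFD replicates 2 and 3 was left out (largest adjusted p 0.339). Snx24, a sorting nexin, lay at 2.21 and 2.42 on the ND arrays and at 4.94, 6.26 and 4.92 on the HFD arrays. Both ND arrays were under their median. It rose by 3.06 ± 0.52 (adjusted p = 0.0117), by at least 2.24 with the ND arrays at their median, and the call ended without ND replicate 1 (0.0835). Rasgef1b, a Ras exchange factor, lay at 2.70 and 3.77 on the ND arrays and at 6.26, 5.44 and 5.87 on the HFD arrays. The HFD arrays were closely grouped, and the rise was 2.62 ± 0.50 (adjusted p = 0.0278). With values under the array median set at it, the rise was 3.64 for Rny3 and 2.42 for Rasgef1b.

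Mmaa, which handles vitamin B12 in mitochondria, lay at 3.49 and 2.42 on the ND arrays and at 5.78, 5.10 and 5.05 on the HFD arrays, a rise of 2.36 ± 0.41 (adjusted p = 0.0132). Uaca was at 2.53 and 3.49 on the ND arrays and at 5.83, 4.99 and 4.67 on the HFD arrays, a rise of 2.15 ± 0.38 (adjusted p = 0.0145). On both genes 1 of the ND arrays lay under its array median, and with it set there the rises were 1.99 and 1.86. Tango2 stood at 4.02 and 4.60 on the ND arrays and at 6.50, 6.28 and 5.84 on the HFD arrays, a rise of 1.90 ± 0.35 (adjusted p = 0.021). St8sia6, a sialyltransferase, lay at 4.10 and 4.48 on the ND arrays and at 6.50, 5.81 and 6.14 on the HFD arrays, a rise of 1.86 ± 0.36 (adjusted p = 0.028). Bcl2l14, of the Bcl-2 family, lay at 2.50 and 2.87 on the ND arrays and at 5.23, 3.84 and 4.39 on the HFD arrays. It rose by 1.80 ± 0.32 (adjusted p = 0.0155), by at least 1.36 with the ND arrays at their median, and its mean in the groups other than ATDC was 1.79 to 2.17. Rasgef1b, Uaca, Tango2, St8sia6 and Bcl2l14 each lost the call without ND replicate 1, and Mmaa without ND replicate 2 (adjusted p = 0.133). The largest adjusted p was 0.239 for Rasgef1b, 0.202 for Uaca, Tango2 and St8sia6 and 0.156 for Bcl2l14.

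The 8 rises not given by value were F630111L10Rik, Ift43, Cd300ld3, Slco2b1, Lhpp, Stat5b, Mrgpra2a and Nisch, with differences of 1.35 to 1.72. Stat5b, a transcription factor downstream of the growth factor GM-CSF, was among them. Across the 9 sorted groups, 7 of the 24 risen genes had their highest mean in HFD ATDC, among them Tango2, St8sia6, Bcl2l14, H2-Eb2 and Stat5b. Choosing them for high values in HFD ATDC favours that order. For 15 of the 24, Ctsk and Gpnmb included, the mean was higher in HFD CD11c+ ATM than in HFD ATDC. The median HFD ATDC minus HFD CD11c+ ATM difference of all tested genes was -0.05. The share of all genes on either side was not counted, so the 15 are not read as a trait of the rises.

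The largest fall was that of Akr1c18, a hydroxysteroid dehydrogenase that inactivates progesterone. It stood at 6.77 and 5.81 on the ND arrays and at 1.98, 3.12 and 2.25 on the HFD arrays. Both ND arrays were well lit, and 1 of the 3 HFD arrays lay above its own median. Akr1c18 fell by 3.84 ± 0.46 log2 units (adjusted p = 0.000771) and passed in each leave-out. With the arrays under their median set at it, the fall was 9.07-fold. The mean of each group other than ATDC was 1.63 to 2.76, so ND ATDC was the one sorted group in which the gene was well lit. Of 8 tested aldo-keto reductases and genes of steroid handling, Akr1c18 alone passed, with 4 positive and 4 negative differences. Akr1b8, another aldo-keto reductase, differed by 1.42 (adjusted p = 0.383).

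Genes of lymphoid cells were among the falls. Klra9, a Ly49 receptor of NK cells, stood at 7.26 and 7.33 on the ND arrays and at 4.78, 3.23 and 4.29 on the HFD arrays. The ND arrays were nearly equal, and each HFD array lay over 2 units lower. It fell by 3.20 ± 0.55 (adjusted p = 0.0124), and the call ended without either ND array (largest adjusted p 0.0744). Klra14-ps, a Ly49 pseudogene, lay at 5.61 and 4.60 on the ND arrays and at 2.65, 2.46 and 1.81 on the HFD arrays. It fell by 2.79 ± 0.46 (adjusted p = 0.0117), by at least 2.02 with the HFD arrays at their median, and did not pass without ND replicate 1 or HFD replicate 3 (largest adjusted p 0.134). Ly49 genes are near-identical, and the signal of one could not be separated from that of another. Of the 3 Ly49 receptors with a tested row of their own, 1 fell (Klra9), and Klra2 differed by -1.15.

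Gimap3, a GTPase of lymphocytes, was at 7.53 and 6.65 on the ND arrays and at 4.75, 4.02 and 4.44 on the HFD arrays. It fell by 2.69 ± 0.42, or 6.45-fold (adjusted p = 0.00817), and the call ended without ND replicate 1 (adjusted p = 0.0976). The whole GIMAP family, which acts in lymphocyte survival, lay lower. All 8 tested members had HFD arrays that did not overlap the ND arrays and lay below them, against 10.1% of all genes tested. The list holds the called Gimap3 and was written with earlier results of these data known. Its members share the same 5 arrays, so the 8 are no independent count. The median difference was -1.62, and all 8 had an unadjusted p under 0.05, although Gimap3 alone was called. Gimap9 differed by -1.92 (adjusted p = 0.118), Gimap7 by -1.88 (adjusted p = 0.252), Gimap5 by -1.75 (adjusted p = 0.0987) and Gimap6 by -1.49 (adjusted p = 0.202). Gimap8 differed by -1.49 (adjusted p = 0.0762), Gimap4 by -1.40 (adjusted p = 0.38) and Gimap1 by -0.87 (adjusted p = 0.333). The family's median level was 6.09 and 6.60 on the ND arrays and 5.25, 4.14 and 4.15 on the HFD arrays, with HFD replicate 1 the closest to the ND arrays. Without HFD replicate 1, 3 members were called.

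The NK and innate lymphoid list showed the same order of arrays. Of 16 tested genes, 15 had a negative difference, 6 an unadjusted p under 0.05 with a lower level, and 1 was called, the Klra9 given above. The median difference was -0.76, and the median level was 7.15 and 7.16 on the ND arrays and 6.21, 4.77 and 4.84 on the HFD arrays. On 2 of the 16 the HFD arrays all lay below the ND arrays, while 10.1% of all genes did so. Ncr1, the activating receptor NKp46, lay at 7.04 and 8.16 on the ND arrays and at 7.32, 5.16 and 5.21 on the HFD arrays (difference -1.70, adjusted p = 0.359). Klrb1c, NK1.1, stood at 5.89 and 7.01 on the ND arrays and at 5.46, 3.81 and 4.38 on the HFD arrays (-1.90 ± 0.43, adjusted p = 0.0739). The median level of the list on HFD replicate 1 lay between those of the ND arrays and of the other HFD arrays, although Ncr1 was higher there than on ND replicate 1. Gzmb, a cytotoxic granule protease, differed by -1.76 (adjusted p = 0.272). The count of called NK genes was 0 without ND replicate 1 or without the PA arrays and 3 without HFD replicate 1.

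The T and B cell lists had no call with all arrays, but an immunoglobulin segment outside them fell. It is a variable segment of the Igkv4 family of the kappa light chain, which B-lineage cells make, and it is added here after its values were seen, since the rule on named genes passes over antigen receptor segments. The segment stood at 8.34 and 7.93 on the ND arrays and at 5.08, 5.77 and 3.68 on the HFD arrays, and fell by 3.29 ± 0.57 (adjusted p = 0.0124), the second largest fall of the 16. The call ended without ND replicate 1 or HFD replicate 3 (largest adjusted p 0.109). Of 12 T cell genes 11 had a negative difference, with a median of -0.65, and of 10 B cell genes 7, with a median of -0.71. The T cell median was -0.25 without HFD replicate 2, -0.42 without ND replicate 1 and -0.89 without HFD replicate 1, and in the last case 1 T cell gene was called lower. At an unadjusted p under 0.05, 1 T cell and 4 B cell genes were lower and 0 were higher in limma. The T cell list's level was 5.35 and 5.77 on the ND arrays and 5.33, 4.38 and 4.55 on the HFD arrays. The B cell list's level was 4.49 and 4.42 on the ND arrays and 4.17, 3.99 and 3.43 on the HFD arrays. Cd5, a T cell surface protein, differed by -1.54 ± 0.35 (adjusted p = 0.0813), Cd3g, a chain of the T cell receptor complex, by -1.83 (adjusted p = 0.647) and Bank1, a B cell adaptor, by -1.87 (adjusted p = 0.144). Ms4a1, which encodes CD20, differed by -1.34 (adjusted p = 0.123), and Cd79a, of the B cell receptor, by -1.52. The levels of the NK, T and B cell lists were lowest on HFD replicates 2 and 3, and their part in the falls of Klra9, Klra14-ps, Gimap3 and the kappa segment was not tested.

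Further falls included genes that lymphocytes also use. Gpr174, a receptor for lysophosphatidylserine on lymphocytes, lay at 3.78 and 3.22 on the ND arrays and at 1.64, 1.86 and 2.00 on the HFD arrays. Even the ND arrays were only a little above their median. It fell by 1.66 ± 0.22 (adjusted p = 0.00137), passed in each leave-out (largest adjusted p 0.0324), and fell by at least 0.41 with the HFD arrays at their median. Ifi208, of the DNA-sensing PYHIN family, lay at 5.35 and 4.33 on the ND arrays and at 3.17, 1.88 and 1.97 on the HFD arrays. It fell by 2.50 ± 0.48 (adjusted p = 0.028) and did not pass in every leave-out. With the HFD arrays under their median set at it, the fall was 1.74. Mfng, a fringe enzyme that sugars Notch receptors, lay at 6.01 and 5.71 on the ND arrays and at 3.82, 4.29 and 4.59 on the HFD arrays. It fell by 1.62 ± 0.33 (adjusted p = 0.0415), a call that any single leave-out ended (largest adjusted p 0.227). Of 20 genes of the interferon response, 0 passed in limma, with 5 higher and 0 lower at an unadjusted p under 0.05.

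The other falls were in genes with less related roles. Ldlrad1 stood at 6.71 and 5.73 on the ND arrays and at 3.38, 3.45 and 3.19 on the HFD arrays, and fell by 2.88 ± 0.46 (adjusted p = 0.0097). Tmem154 stood at 7.88 and 7.71 on the ND arrays and at 5.06, 6.39 and 4.94 on the HFD arrays, and fell by 2.34 ± 0.45 (adjusted p = 0.028). Both were well lit in lean mice and clearly separated by diet. AF067061 lay at 5.48 and 6.09 on the ND arrays and at 3.61, 3.89 and 1.98 on the HFD arrays. It fell by 2.63 (adjusted p = 0.0415), and by 2.26 with HFD replicate 3 set at its median. Dapl1 lay at 4.83 and 3.83 on the ND arrays and at 2.77, 1.76 and 2.45 on the HFD arrays, and fell by 2.00 ± 0.33 (adjusted p = 0.0117). Its HFD arrays were all under their median, which leaves a fall of at least 1.24. Cyp2ab1, a cytochrome P450, lay at 5.13 and 5.12 on the ND arrays and at 3.49, 3.73 and 3.11 on the HFD arrays, and fell by 1.68 ± 0.35 (adjusted p = 0.043). Smim6 was at 4.11 on both ND arrays and at 2.75, 2.53 and 2.52 on the HFD arrays, and fell by 1.51 ± 0.28 (adjusted p = 0.021), or by at least 1.02 with the HFD arrays at their median. Leaving out ND replicate 1 ended the call of each of these genes. Of the 16 fallen genes, 15 had their highest mean of the 9 groups in ND ATDC, the exception being Cyp2ab1, whose mean was 5.83 in ND CD11c- ATM. The genes were chosen for high values in ND ATDC, which favours that order.

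**Figure D3:**
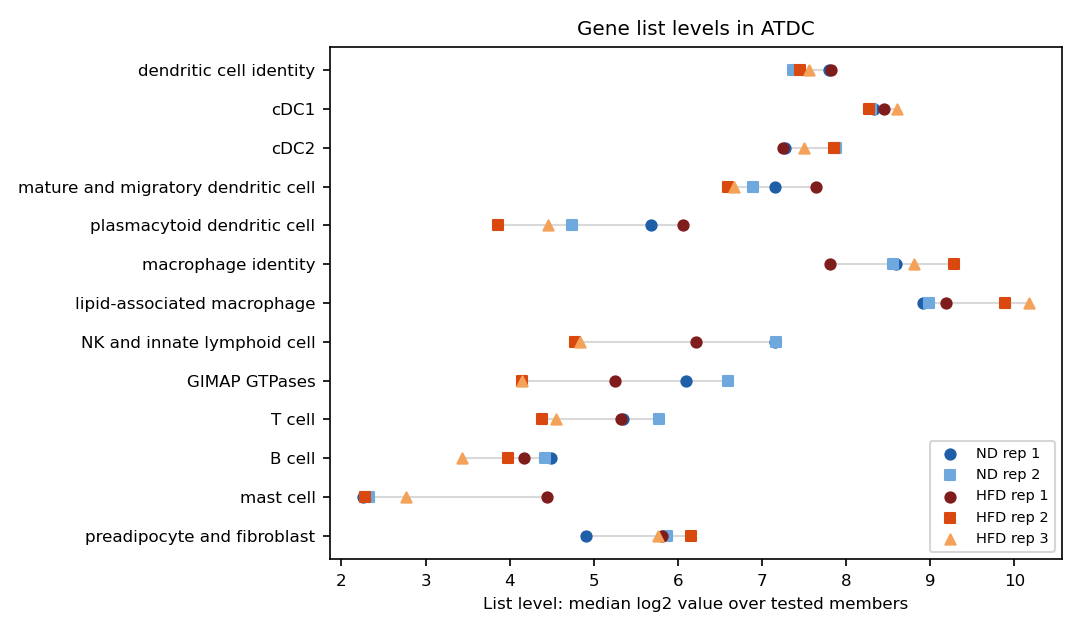
Median log2 level over the tested genes of 13 lists (y axis) on each of the 5 ATDC arrays (x axis, log2 units), with blue for ND and red to orange for HFD. Dendritic cell lists overlap between diets, the NK and GIMAP lists are lowest on HFD replicates 2 and 3, and the mast cell list is highest on HFD replicate 1.

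HFD replicate 1 stood apart in mast cell genes. Their median level was 4.45 on that array, 2.28 on HFD replicate 2, 2.77 on HFD replicate 3 and 2.26 and 2.33 in the ND pools. Cpa3, a mast cell protease, lay at 2.40 and 2.23 on the ND arrays and at 7.88, 3.45 and 4.19 on the HFD arrays. Mcpt4 and Tpsb2, also mast cell proteases, were at 6.72 and 5.86 on HFD replicate 1. None of the 10 mast cell genes passed, with 0 at an unadjusted p under 0.05. Cpa3 differed by 2.86 ± 1.38 (adjusted p = 0.588). Leaving this array out ended the call of 8 of the 40 genes. The number ended was 32 and 16 when ND replicates 1 and 2 were left out, and 11 and 23 for HFD replicates 2 and 3.

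Signalling genes between cells were lower on the HFD arrays in part, without a call. The median level of 16 chemokine receptors was 6.45 and 6.98 on the ND arrays and 5.73, 4.86 and 5.20 on the HFD arrays. The median of their differences was smaller, -0.24, with 5 positive and 11 negative. Cxcr6, a receptor of tissue lymphocytes, differed by -2.01 (adjusted p = 0.159) and Ccr1 by -1.44. The median level of 27 chemokine ligands was 7.63 and 7.54 on the ND arrays and 6.91, 6.95 and 6.54 on the HFD arrays. Here too the median of the differences was smaller, -0.195, with 12 positive and 15 negative. Ccl8 differed by 2.18 (adjusted p = 0.351), Ccl7 by -1.99 (adjusted p = 0.274) and Ccl24 by -1.88, so single ligands lay on both sides. At an unadjusted p under 0.05 in limma there were 4 lower and 0 higher receptors, and 4 lower and 2 higher ligands. The 28 genes of dissociation stress, which respond to tissue digestion, stood at 7.86 and 7.77 on the ND arrays and at 7.17, 7.52 and 7.49 on the HFD arrays, with 0 at an unadjusted p under 0.05. The median of their differences was -0.09, with 13 positive and 15 negative. In all, 39 of 49 lists had no called gene, and 10 of the 40 called genes belonged to a list.

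The diet difference in ATDC was set beside that in the other sorted populations with both diets. In CD11c- ATM, 95 genes (0.613%) differed between HFD and ND, and in PA, 401 (2.59%). The CD11c- ATM count rests on 3 HFD and 2 ND arrays, the PA count on 3 of each diet. Every tested macrophage identity gene had a positive limma difference in PA. Adgre1 differed by 2.98 there (adjusted p = 0.00399), Cd68 by 2.94 (adjusted p = 0.00173) and Ptprc by 2.21 (adjusted p = 0.0546). The part of leukocyte RNA in the PA differences was not tested. Of the 24 genes that rose in ATDC, 3 also rose in CD11c- ATM, which were measured on other arrays. These were Ctsk by 4.53 ± 0.58 (adjusted p = 0.00054), Gpnmb by 3.65 ± 0.70 (adjusted p = 0.0175) and Postn by 4.75 ± 0.54 (adjusted p = 0.000195). Pools of the same mice behind the ATDC and CD11c- ATM arrays are not excluded. In CD11c- ATM, Itgax itself rose by 3.25 (limma adjusted p = 0.0275), from 2.89 under ND to 6.13 under HFD. Preadipocyte and fibroblast markers other than Dlk1 (-0.44) all had positive differences there, such as Lum (3.77) and Col1a2 (3.14). The part of CD11c+ or matrix-producing cells in the CD11c- ATM differences was not tested. Of the 16 that fell, only Cyp2ab1 also fell in CD11c- ATM, by 1.84 ± 0.35 (adjusted p = 0.0171). In PA, Postn rose by 2.17 ± 0.48 (adjusted p = 0.0176), and St8sia6 fell by 2.13 ± 0.32 (adjusted p = 0.000645), opposite to its rise in ATDC. The level of Ctsk was 3.29 in ND and 7.82 in HFD CD11c- ATM, close to its means in ATDC, while PA already held 8.995 under ND. Gas6, which rose in ATDC, had a mean of 10.43 in ND CD11c- ATM, far above its level in either ATDC group.

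The difference between the diet differences was tested directly. Against CD11c- ATM it passed for 9 genes (0.0581%), 7 with a higher and 2 with a lower value in ATDC. Timp1, an inhibitor of matrix proteases, lay at 5.38 and 6.50 in the ND ATDC pools and at 4.31, 6.04 and 4.46 in the HFD ATDC pools, a difference of -1.003 ± 0.65, against 4.02 ± 0.65 in CD11c- ATM (interaction -5.02 ± 0.92, adjusted p = 0.0485). Its diets overlapped in ATDC. Mmp9, a gelatinase, stood at 5.10 and 5.72 in the ND ATDC pools and at 4.03, 4.32 and 3.81 in the HFD ATDC pools. It differed by -1.36 ± 0.35 in ATDC (adjusted p = 0.138) and by -4.80 ± 0.35 in CD11c- ATM, an interaction of 3.44 ± 0.50 (adjusted p = 0.0105). Dnase1l3, a secreted DNase, lay at 3.95 and 4.24 in the ND ATDC pools and at 5.79, 4.10 and 5.54 in the HFD ATDC pools, with the diets overlapping. Its interaction was 4.35 ± 0.72 (adjusted p = 0.0307), with -3.31 ± 0.51 in CD11c- ATM. The falls and rises of named genes that differed from CD11c- ATM were those of Akr1c18 (-3.95 ± 0.65, adjusted p = 0.0307), Sema6d (3.44 ± 0.59, adjusted p = 0.0414), Uaca (3.00 ± 0.54, adjusted p = 0.0485) and Tango2 (2.70 ± 0.50, adjusted p = 0.0485). Akr1c18 was above the array median on 0 of the 5 CD11c- ATM arrays, so a fall could not be seen there and its interaction restates the fall in ATDC. Each of these interactions lost its call in some leave-out, Mmp9 without either ND CD11c- ATM array.

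Against PA the interaction passed for 41 genes (0.265%), 23 higher and 18 lower in ATDC. St8sia6 (3.99 ± 0.48, adjusted p = 0.000422) passed in each of 19 alternatives. Snx24 rose in ATDC and differed by -1.02 in PA, an interaction of 4.08 ± 0.69 (adjusted p = 0.011). Timp1 again stood out, with 3.92 in PA and an interaction of -4.92 ± 0.87 (adjusted p = 0.014). Nt5e, the ecto-enzyme CD73, had the smallest p of the genes named here (interaction 4.09 ± 0.36, adjusted p = 4.11e-06). The interaction came from a difference of -3.64 in PA, since no ATDC array was above its median. Col8a1, a collagen, likewise differed in PA (4.72) and not in ATDC (-0.02), with an interaction of -4.74 ± 0.93 (adjusted p = 0.0305). Among the falls, Akr1c18 (-3.57 ± 0.62, adjusted p = 0.0113), Ifi208 (-3.50 ± 0.65, adjusted p = 0.0179) and Gimap3 (-2.69 ± 0.56, adjusted p = 0.0486) fell in ATDC relative to PA. The same held for Mfng (-2.48 ± 0.44, adjusted p = 0.0149) and Gpr174 (-1.79 ± 0.29, adjusted p = 0.00941). Among the rises, Ctsk (3.72 ± 0.77, adjusted p = 0.0476) and H2-Eb2 (2.03 ± 0.37, adjusted p = 0.0179) passed. These 5 genes were dim in PA already under ND: Gpr174 and Ifi208 were above the array median on 0 of the 3 ND PA arrays, and Akr1c18, Gimap3 and Mfng on 1 of 3. A fall could hardly be seen there, so that their interactions largely restate the fall in ATDC. H2-Eb2 was above the median on 1 of 3 ND and 0 of 3 HFD PA arrays. The ATDC arrays that chose these genes also enter the interactions, so their number is no independent count.

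**Figure D4:**
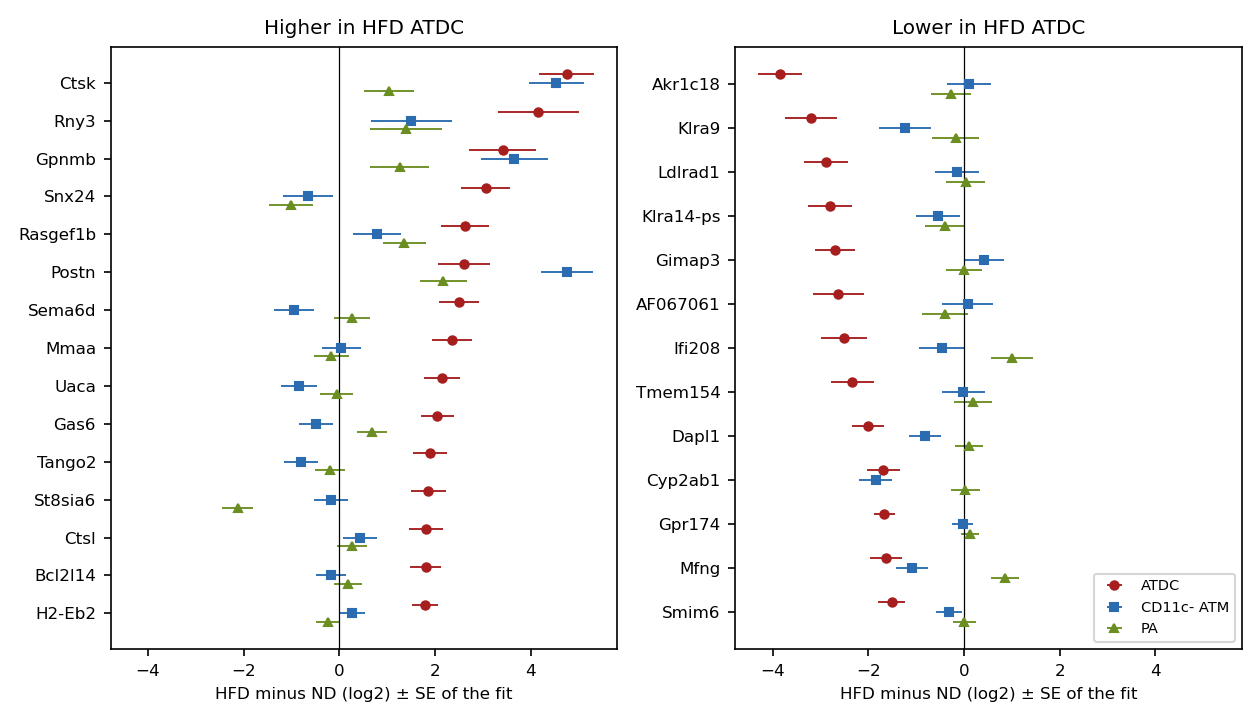
HFD minus ND difference (x axis, log2 units, ± SE of the limma fit) of the 15 rises and 13 falls in ATDC (y axis), drawn for ATDC, CD11c- ATM and PA. Ctsk, Gpnmb and Postn rose in both ATDC and CD11c- ATM, St8sia6 points opposite ways in ATDC and PA, and Akr1c18 lies near 0 in CD11c- ATM and PA.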

How the data were processed

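Whole-transcript cDNA was made from RNA of sorted cells with a NuGEN kit and measured on single-colour arrays, per the labels' protocols. The deposited table holds log2 values of 41345 probe rows. The authors used RMA, oligo and limma, per the submitters' processing notes. Their versions, and whether limma altered the log2 values, are not stated in the sources used here. RMA quantile-normalizes arrays against each other, so a change common to every gene of a sample does not show. Detection calls were not used here, and the number of arrays limits the precision.

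Arrays were grouped by their titles. Probe rows with exactly 1 symbol (23521) gave 22180 genes, and of several rows the one with the highest mean over 24 arrays was kept. A gene was tested where at least 2 arrays lay above their own median (15496 genes). The groups were compared with limma 3.58.1 (lmFit, eBayes) in R 4.3.3, with 9 group means, 15 residual degrees of freedom, two-sided tests and Benjamini-Hochberg adjustment over all genes tested within a comparison (threshold 0.05). Where no array of the dimmer group lay above its own median, the least difference sets those arrays at their median. The same was done where only some of its arrays lay under it, and that value is a recomputed difference and not a lower bound. A least difference bounds the effect of dim values and not the spread between pools. The code was tested on simulated data.

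Genes were named as the 15 largest rises and 15 largest falls past the threshold, passing over gene models and antigen receptor segments (1 risen and 3 fallen genes), with Dpp7 and an Igkv4 segment added after their values were seen. For each list described, called members and up to 4 more with the largest difference were named, for each interaction up to 5 genes, and a set of marker genes whatever their values. The members and lists were chosen with earlier results of these data known. Of the marker genes, Cd74 and Clec9a had no row of their own symbol. Alternatives were the filter, the row of a gene, the variance prior, array weights, centring, the arrays that share the spread, replicate terms and leaving out arrays.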

Additional observations from a re-analysis of the deposited data

Results flagged for a closer look

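The results below were picked out because the diet difference in ATDC was not the same as in another sorted population, by the limma interaction test over all genes (adjusted p under 0.05). How far RNA of other cells in the CD11c- ATM and PA pools enters these values was not tested. Against CD11c- ATM these were Timp1 (-5.02), Dnase1l3 (4.35), Akr1c18 (-3.95), Mmp9 (3.44), Sema6d (3.44), Uaca (3.00) and Tango2 (2.70), each in log2 units as the ATDC difference minus the other. Each of the 7 failed to pass in some of 19 alternatives. Mmp9 passed in 16 of them, with a largest adjusted p of 0.0621, and Timp1 in 6, with a largest adjusted p of 0.252.

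Against PA the values were -4.92 for Timp1, -4.74 for Col8a1, 4.09 for Nt5e, 4.08 for Snx24, 3.99 for St8sia6, 3.72 for Ctsk and 2.03 for H2-Eb2. Among genes that fell in ATDC they were -3.57 for Akr1c18, -2.69 for Gimap3, -3.50 for Ifi208, -1.79 for Gpr174 and -2.48 for Mfng. St8sia6 passed in all 19 alternatives and Nt5e in all 18 in which it was tested. Timp1, Snx24, Akr1c18, Gpr174 and Mfng each passed in 18 of 19, failing without ND ATDC replicate 2 (Timp1) or without ND ATDC replicate 1 (the other genes). Akr1c18 was above the array median on 0 of the 5 CD11c- ATM arrays, and Akr1c18, Gimap3, Ifi208, Gpr174 and Mfng on 0 or 1 of the 3 ND PA arrays, so a fall could hardly be seen in those cells.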

How the results depend on the processing

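None of the interactions named here reversed its direction under any alternative run, and the 40 ATDC genes kept their sign in each. The other called interactions were not followed through the alternatives. Against 40 in ATDC, the count was 23 without the PA arrays (21 shared with the 40) and 0 in the fit of the 5 ATDC arrays alone, and leave-outs gave 18 to 81. The count was 39 with no filter, 42 with a stricter one, 40 with the mean of a gene's rows, 43 with trend and robust, 40 with array weights (21 higher, 19 lower) and 34 with centring (17 higher, 17 lower), which moved the median of all genes to -0.06. Array weights and centring thus shifted the split from 24 higher and 16 lower.

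Against 9 in the interaction with CD11c- ATM, the count was 4 with no filter, 4 with the stricter filter, 3 without the PA arrays and 2 with the replicate block, and leave-outs gave 1 to 15. Against 41 in the interaction with PA, it was 19 with the stricter filter, 103 with array weights and 51 with the replicate block, and leave-outs gave 25 to 140. The leave-outs of CD11c- ATM and PA arrays were chosen after seeing the data. The cause of these changes was not tested.

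Deviations of same-numbered arrays from their group means were correlated between groups. HFD ATDC and other HFD or WL groups gave an r of -0.109 to 0.106, and ND ATDC and ND PA 0.0651 and 0.0285. The highest r was 0.252, between HFD CD11c+ and CD11c- ATM at replicate 2. ND and HFD ATDC gave 0.00911 and -0.0214, which cannot show pairing because the diets used different mice. Pairing of samples by replicate number is neither shown nor excluded by these values. With the number as a fixed replicate block 29 ATDC genes were called, 26 of them shared with the 40, and with a random replicate block 40. With 2 ND pools, ND replicate 1 decides many calls: without it 32 of the 40 were not called.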

Other observations

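Antioxidant genes lay on both sides in ATDC. Slc7a11, the cystine importer that feeds glutathione synthesis, stood at 7.88 and 6.25 on the ND arrays and at 2.45, 4.73 and 4.30 on the HFD arrays, a difference of -3.24 ± 0.75 that did not pass in limma (adjusted p = 0.0827). Gclm, a subunit of the enzyme that starts glutathione synthesis, lay at 4.15 and 4.10 on the ND arrays and at 6.42, 5.54 and 5.51 on the HFD arrays (1.70 ± 0.39, adjusted p = 0.0789). The diets did not overlap on either gene, and their differences had opposite signs. Of 15 tested antioxidant genes 0 passed, with 2 higher and 1 lower at an unadjusted p under 0.05.

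Among 22 C-type lectin receptors 0 passed in limma, with 3 higher and 0 lower at an unadjusted p under 0.05. Ly75, the uptake receptor DEC-205 of dendritic cells, differed by 1.67 ± 0.36 (adjusted p = 0.0631), and Clec4n, which encodes dectin-2, by 1.79 (adjusted p = 0.197). Neutrophil and monocyte markers had no called gene. S100a8, an abundant neutrophil protein, differed by -2.03 (adjusted p = 0.221) and Ly6c2, a marker of inflammatory monocytes, by -1.49 (adjusted p = 0.331). At an unadjusted p under 0.05, 3 of 9 neutrophil and 1 of 13 monocyte genes were lower and 0 were higher.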
